A study of Mus musculus with 9 samples.

Results

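The genes described here are 10 transcriptional outputs of the RAS to ERK branch of MAP kinase signalling: Dusp4, Dusp6, Spry2, Spry4, Spred1, Etv4, Etv5, Phlda1, Fosl1 and Ccnd1. They were taken by symbol from the gene count files. Each of the 10 symbols stood on 1 entry among 54532, and all 10 were among the 14193 genes with enough counts to be tested. The libraries came from tumours of B16-F10, a mouse melanoma cell line, grown after injection under the skin of C57BL/6 mice and collected on day 16. The control group (labelled shcontrol, genotype WT) carried a control short hairpin RNA, and the other 2 groups carried hairpin 1 (shFBXO38#1) or hairpin 2 (shFBXO38#2) against Fbxo38, the gene of an F-box protein that serves as a substrate receptor of a ubiquitin ligase. No sample had another treatment, and each group had 3 libraries. The hairpins were placed in the tumour cells and not in the host, and whether each line was a clone or a pool is not given in the sources used here. The genotype field of the 6 hairpin libraries runs from FBXO38 to FBXO43, so groups were taken from the titles. Nothing in the labels ties the replicates to separate mice. The p-values therefore rest on the spread among these libraries, which may not be the spread between mice.

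In this pathway, growth factor receptors load RAS with GTP, RAS recruits RAF kinases, and RAF passes the signal through MEK to ERK. ERK alters transcription factors in the nucleus, and the genes they switch on include inhibitors that feed back on the pathway: the phosphatase genes Dusp4 and Dusp6, and the Sprouty and Spred genes. The pathway is a main driver of melanoma growth, and transcript levels of genes such as these are widely used as a readout of its activity. They are not a measure of ERK phosphorylation itself.

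The RefSeq promoter table (GRCm38.p6) held 4 of the members, Dusp6, Spry2, Spred1 and Etv5. The windows of Dusp6, Spry2 and Etv5 are shown because these 3 genes were highest and lowest in the same 2 libraries, as described further on. Each window is the 250 bases before a RefSeq start, read 5′ to 3′ on the gene's strand. Capitals mark TGAATG on either strand, the first 6 bases of the octamers bound by Capicua, a repressor that ERK signalling is known to relieve at Etv4 and Etv5. The Dusp6 window is chr10:99262981-99263230 on the plus strand, the Spry2 window chr14:105896820-105897069 on the minus strand, and the Etv5 window chr16:22438369-22438618 on the minus strand, before the inner of 2 RefSeq starts.
Dusp6: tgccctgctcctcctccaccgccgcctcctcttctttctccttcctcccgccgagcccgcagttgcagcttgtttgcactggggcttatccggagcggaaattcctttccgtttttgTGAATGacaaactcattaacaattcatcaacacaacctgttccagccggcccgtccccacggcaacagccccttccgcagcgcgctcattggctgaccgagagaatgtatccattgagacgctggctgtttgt
Etv5: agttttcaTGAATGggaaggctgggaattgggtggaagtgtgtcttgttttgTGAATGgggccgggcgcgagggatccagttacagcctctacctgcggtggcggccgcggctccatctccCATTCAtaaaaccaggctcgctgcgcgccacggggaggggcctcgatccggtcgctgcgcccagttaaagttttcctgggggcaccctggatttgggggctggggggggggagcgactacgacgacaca
Spry2: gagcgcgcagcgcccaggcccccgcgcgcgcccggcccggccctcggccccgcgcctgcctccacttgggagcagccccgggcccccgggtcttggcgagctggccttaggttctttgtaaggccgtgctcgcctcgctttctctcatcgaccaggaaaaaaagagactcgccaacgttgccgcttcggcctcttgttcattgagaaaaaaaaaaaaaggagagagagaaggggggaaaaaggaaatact

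The Etv5 window held TGAATG 3 times, beginning at -242, -198 and -129 relative to the start, and the Dusp6 window held it once, at -133. The Spry2 and Spred1 windows and the window before the outer Etv5 start had no match. Of 32851 RefSeq windows of the same length, 10.9% held TGAATG at least once and 0.131% held it at least 3 times. This motif was chosen after the sequences had been read. Of the motifs searched before it, the whole Capicua octamers TGAATGAA and TGAATGGA, which contain TGAATG, had no match in any of the 5 windows. The same was true of the ETS motifs CCGGAAGT and its core CCGGAA, the AP-1 motif TGACTCA, the cyclic AMP element TGACGTCA and the TATA box TATAAA. In all RefSeq windows these were present in 1.08%, 1.01%, 2.88%, 12.0%, 4.46%, 1.55% and 12.4%, in the order named. The CAAT box CCAAT, present in 33.8% of all windows, was in the Dusp6 window and both Etv5 windows. The GC box GGGCGG, present in 32.7% of all windows, was found 3 times before the outer Etv5 start and 2 times in the Spred1 window. Matches describe the letters of these windows and show no binding.

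Library totals were between 15322163 and 17342554 counts. Levels are given as CPM, a gene's counts relative to the library size, after scaling each library by the TMM method of edgeR. Markers of melanocytes (7 of 7 tested) summed to 20473 to 26930 CPM across the 9 libraries, so the labelled line's lineage genes were abundant in each, while the keratinocyte genes Krt5, Krt14 and Krt1 had no counts. The targeted transcript, Fbxo38, was at 21.7, 31.3 and 30.8 CPM in control replicates 1 to 3, at 35.1, 21.0 and 22.0 CPM in the libraries labelled hairpin 1, and at 21.0, 11.4 and 11.9 CPM with hairpin 2. Its log2 fold change was -0.10 ± 0.28 (SE, n = 3 per group) for the libraries labelled hairpin 1 and -0.92 ± 0.29 for hairpin 2 (edgeR adjusted p = 0.254). A lower level in the libraries labelled hairpin 1 was thus neither shown nor excluded, with a 95% interval of -0.73 to 0.53. Replicate 1 labelled hairpin 1 was above every control, and replicates 2 and 3 were below control replicates 2 and 3. The 2 libraries that stood apart over all genes were replicate 1 labelled hairpin 1, which was the highest of the 9 for 19.1% and the lowest for 20.4% of tested genes, and replicate 2 of hairpin 2, with 17.7% and 19.0%. Erythroid markers summed to 21462 CPM in the latter and to 421 to 4967 CPM in the others. As these are bulk tumours, fewer cells of a type and less RNA per cell cannot be told apart. In each library the members were measured as a mixture of melanoma and host RNA.

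Scaled to the length of the longest annotated transcript, Dusp4 was the most abundant member, at 95.9 ± 23.0 CPM per kb over all libraries (SD, n = 9). Phlda1 followed at 57.3, Dusp6 at 50.8 and Ccnd1 at 45.7 CPM per kb, and the ranges of neighbours among these 3 overlapped. Spred1 was at 18.3, Etv5 at 12.5 and Spry2 at 10.8 CPM per kb, again with overlapping neighbours. Spry4 at 3.30, Etv4 at 2.99 and Fosl1 at 0.955 CPM per kb were the least abundant. In this order the ranges were separate at only 3 steps: Dusp4 lay above Phlda1 in every library, Ccnd1 above Spred1, and Spry2 above Spry4.

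**Figure D1:**
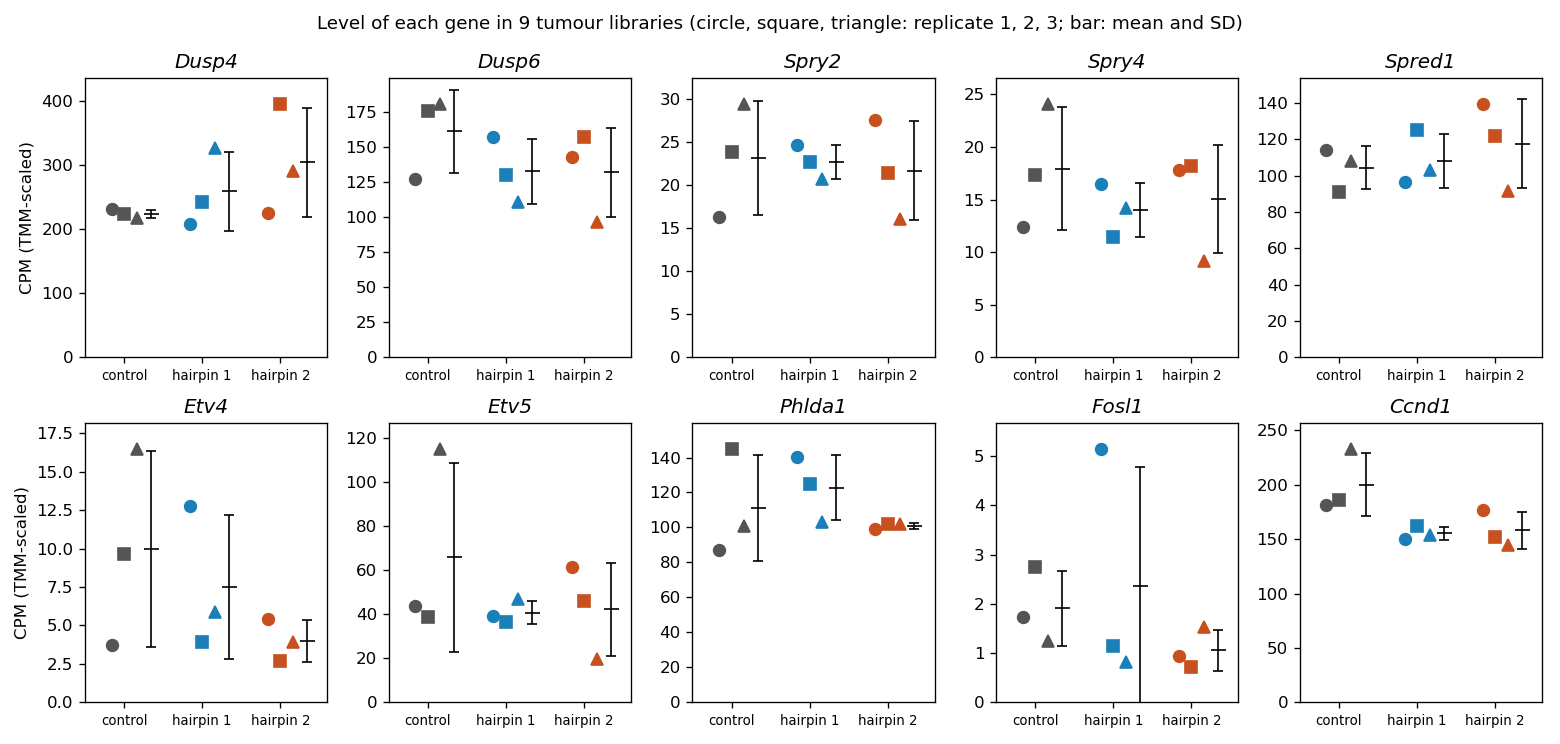
CPM of the 10 genes (vertical axes, each starting at 0) in the control, labelled hairpin 1 and hairpin 2 libraries; points are libraries and bars are the mean and SD of 3. For Ccnd1 the 6 hairpin libraries, at 145 to 177 CPM, lie below the 3 control libraries, at 181 to 233 CPM; the SD bar of Fosl1 for hairpin 1 runs below 0 and is cut at the axis.

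No member differed between groups by the edgeR quasi-likelihood test at an adjusted p under 0.05, in any of the 3 comparisons. The background was the same: 0 of 14193 genes passed (0%), with the lowest adjusted p at 1 for the libraries labelled hairpin 1 against control, 0.241 for hairpin 2 against control and 0.375 for hairpin 2 against hairpin 1. At an unadjusted p under 0.05, 450 genes (3.17%), 2046 genes (14.4%) and 1655 genes (11.7%) stood out in these comparisons, and 1, 2 and 0 of the members did. The 1 member was Ccnd1, and the 2 members were Ccnd1 and Etv4. DESeq2 called 0, 280 and 89 genes at an adjusted p under 0.05, none of them a member. The comparisons of each hairpin with control share the same 3 control libraries, so their values are given side by side and are not 2 independent readings.

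The median log2 fold change of the 10 members was -0.16 for the libraries labelled hairpin 1 and -0.27 for hairpin 2, both against control. Over all tested genes it was 0.01 in each. In these comparisons 6 and 8 of 10 members had a negative log2 fold change, where 47.4% and 48.5% of all tested genes did. Between hairpin 2 and hairpin 1 the median was 0.01 with 5 of 10 negative, beside 49.8% of all genes. The single members below show how much of this came from 1 control library.

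Dusp4 and Dusp6 encode dual-specificity phosphatases that remove the activating phosphates from ERK, Dusp4 in the nucleus and Dusp6 in the cytoplasm. Dusp4 (ENSMUSG00000031530.6, GRCm38 chromosome 8, 34807297 to 34819894, plus strand) was at 231, 224 and 218 CPM in control replicates 1 to 3, at 208, 242 and 327 CPM in the libraries labelled hairpin 1, and at 226, 396 and 291 CPM with hairpin 2. The control libraries lay close together, inside the range labelled hairpin 1 and low against hairpin 2, where only control replicate 1 was above the lowest library, so the groups overlapped. Its mean was 224 ± 6.19 CPM in control and 304 ± 85.5 CPM with hairpin 2 (SD, n = 3 each), a log2 fold change of 0.44 ± 0.21 (SE, edgeR adjusted p = 0.371). Replicate 2 of hairpin 2, 1 of the libraries that stood apart over all genes, carried much of that difference: without it the log2 fold change was 0.19. For the libraries labelled hairpin 1 the log2 fold change was 0.21 ± 0.21, and 0.00 without replicate 3.

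Dusp6 (ENSMUSG00000019960.8, chromosome 10, 99263231 to 99267489, plus strand), whose promoter window is shown above, ran the other way. It was at 127, 176 and 181 CPM in control, at 157, 130.0 and 111 CPM in the libraries labelled hairpin 1, and at 143, 157 and 96.4 CPM with hairpin 2. Each hairpin group reached both above the lowest control library and below it. The log2 fold change was -0.28 ± 0.21 for the libraries labelled hairpin 1 and -0.29 ± 0.21 for hairpin 2 (edgeR adjusted p = 1 and 0.543). The 95% interval for hairpin 2 was -0.75 to 0.17 and so included 0.

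Spry2 and Spry4 encode Sprouty proteins, which restrain signalling between receptor tyrosine kinases and RAF, and Spred1 encodes a related adaptor that brings neurofibromin to RAS at the membrane. Spry2 (ENSMUSG00000022114.5, chromosome 14, 105891947 to 105896819, minus strand) was at 16.3, 23.9 and 29.5 CPM in control, at 24.7, 22.7 and 20.8 CPM in the libraries labelled hairpin 1, and at 27.6, 21.5 and 16.1 CPM with hairpin 2. The 2 hairpin groups lay within the range of the controls except for replicate 3 of hairpin 2, which was just below it. Means were 23.2 ± 6.63, 22.8 ± 1.93 and 21.8 ± 5.74 CPM (SD, n = 3 each), and both log2 fold changes against control were within 0.09 of 0, at -0.03 and -0.09.

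Spry4 (ENSMUSG00000024427.7, chromosome 18, 38586247 to 38601415, minus strand) had the same order of libraries at its ends. It was at 12.4, 17.3 and 24.1 CPM in control, at 16.5, 11.4 and 14.2 CPM in the libraries labelled hairpin 1, and at 17.8, 18.2 and 9.14 CPM with hairpin 2. Control replicate 3 was the highest of the 9 libraries and replicate 3 of hairpin 2 the lowest, for both Sprouty genes. The log2 fold changes of Spry4 were -0.35 ± 0.30 and -0.25 ± 0.30, and -0.08 and 0.02 without control replicate 3.

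Spred1 (ENSMUSG00000027351.14, chromosome 2, 117121374 to 117182279, plus strand) was steadier. It was at 114, 91.0 and 108 CPM in control, at 96.4, 125 and 103 CPM in the libraries labelled hairpin 1, and at 139.5, 122 and 91.3 CPM with hairpin 2. Its groups overlapped, its log2 fold changes were 0.05 ± 0.17 and 0.17 ± 0.17, and neither of the 2 libraries at the ends of the Sprouty genes stood at the end of its range.

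Etv4 and Etv5 encode ETS factors of the PEA3 group that carry the ERK signal on to further genes. Etv4 (ENSMUSG00000017724.14, chromosome 11, 101769742 to 101785371, minus strand) was at 3.76, 9.67 and 16.5 CPM in control, at 12.8, 3.90 and 5.87 CPM in the libraries labelled hairpin 1, and at 5.40, 2.68 and 3.90 CPM with hairpin 2. With hairpin 2 all libraries were low, but control replicate 1 was as low, so the groups overlapped. Its mean of 3.99 ± 1.36 CPM with hairpin 2 stood against 9.97 ± 6.36 CPM in control (SD, n = 3 each), a log2 fold change of -1.32 ± 0.58 with a 95% interval of -2.63 to -0.00 (unadjusted p = 0.0494, edgeR adjusted p = 0.346). Without control replicate 3 the log2 fold change was -0.75, and without control replicate 1 it was -1.71. The controls differed 4.38-fold among themselves, on 63 to 277 counts, and exact Poisson intervals of replicates 1 and 3 (2.89 to 4.81 and 14.6 to 18.5 CPM) did not overlap; they cover counting error only.

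Etv5 (ENSMUSG00000013089.15, chromosome 16, 22381309 to 22439719, minus strand), with the 3 TGAATG matches in its inner window, was at 43.5, 38.6 and 115 CPM in control. It was at 39.0, 36.4 and 46.7 CPM in the libraries labelled hairpin 1 and at 61.2, 46.0 and 19.5 CPM with hairpin 2. Control replicate 3 had 115 CPM where the next highest library had 61.2, and the other 2 controls lay among the hairpin libraries. The log2 fold changes were -0.69 ± 0.51 and -0.64 ± 0.51 with all libraries (edgeR adjusted p = 1 and 0.594), and -0.01 and 0.04 without control replicate 3.

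Phlda1, which encodes a pleckstrin homology-like protein induced by growth factor signalling, and Fosl1, the gene of the AP-1 subunit FRA1, are further outputs. Phlda1 (ENSMUSG00000020205.8, chromosome 10, 111506286 to 111508645, plus strand) was at 87.1, 145 and 101 CPM in control, at 140.3, 125 and 103 CPM in the libraries labelled hairpin 1, and at 99.0, 102 and 102 CPM with hairpin 2. The hairpin 2 libraries were nearly equal and lay below all 3 labelled hairpin 1, and within the range of the controls. Between the 2 hairpins the log2 fold change was -0.28 ± 0.18 (edgeR adjusted p = 0.549), and 7.67% of tested genes had hairpin 2 libraries all below those of hairpin 1.

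Fosl1 (ENSMUSG00000024912.6, chromosome 19, 5447547 to 5455946, plus strand) was at the edge of what this depth resolves, with 12 to 87 counts per library. It was at 1.73, 2.74 and 1.25 CPM in control, at 5.15, 1.14 and 0.821 CPM in the libraries labelled hairpin 1, and at 0.941, 0.716 and 1.52 CPM with hairpin 2. Replicate 1 labelled hairpin 1, which stood apart over all genes too, was highest: its exact Poisson 95% interval of 4.13 to 6.35 CPM was above that of every other library. The log2 fold change of the labelled hairpin 1 group was 0.32 ± 0.67 with that library and -0.97 without it, so its direction rested on 1 library. An exon of Ccdc85b overlaps Fosl1 on the other strand, and at 29.6 to 46.5 CPM it had many times the counts of Fosl1. Ccdc85b was highest in control replicate 2 (46.5 CPM) and in replicate 1 labelled hairpin 1 (46.4 CPM), the 2 libraries in which Fosl1 was also highest. Whether counting used strand is not given in the sources used here, and the part of Ccdc85b reads in the Fosl1 counts was not tested.

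Ccnd1 encodes cyclin D1, which partners Cdk4 and Cdk6 to drive cells out of G1 and links ERK signalling to the cell cycle. Ccnd1 (ENSMUSG00000070348.5, chromosome 7, 144929931 to 144939925, minus strand) was at 181, 186 and 233 CPM in control, at 149.9, 162 and 154 CPM in the libraries labelled hairpin 1, and at 177, 152 and 145 CPM with hairpin 2. All 6 hairpin libraries were below all 3 controls, as they were for 1.62% of tested genes. Taken singly, hairpin libraries lay wholly below the controls for 4.30% of genes with hairpin 1 and 10.2% with hairpin 2, and Ccnd1 was the only member in either count. Its log2 fold change was -0.36 ± 0.12 for the libraries labelled hairpin 1 (95% interval -0.63 to -0.09, unadjusted p = 0.0139, edgeR adjusted p = 1) and -0.34 ± 0.12 for hairpin 2 (-0.61 to -0.07, unadjusted p = 0.0194, adjusted p = 0.27). Without control replicate 3 these became -0.24 (unadjusted p = 0.0743) and -0.22 (0.103). Ccnd1 varied least within groups of all the members, with an SD of 0.15 on the log2 CPM scale where the median tested gene had 0.24. Fbxo38 itself had a log2 fold change of -0.10 (95% interval -0.73 to 0.53) in the libraries labelled hairpin 1. Whether the level of Ccnd1 follows that of Fbxo38 was not tested. The gene listed as Oraov1 overlaps Ccnd1 on the other strand and was at 12.2 to 15.2 CPM.

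**Figure D2:**
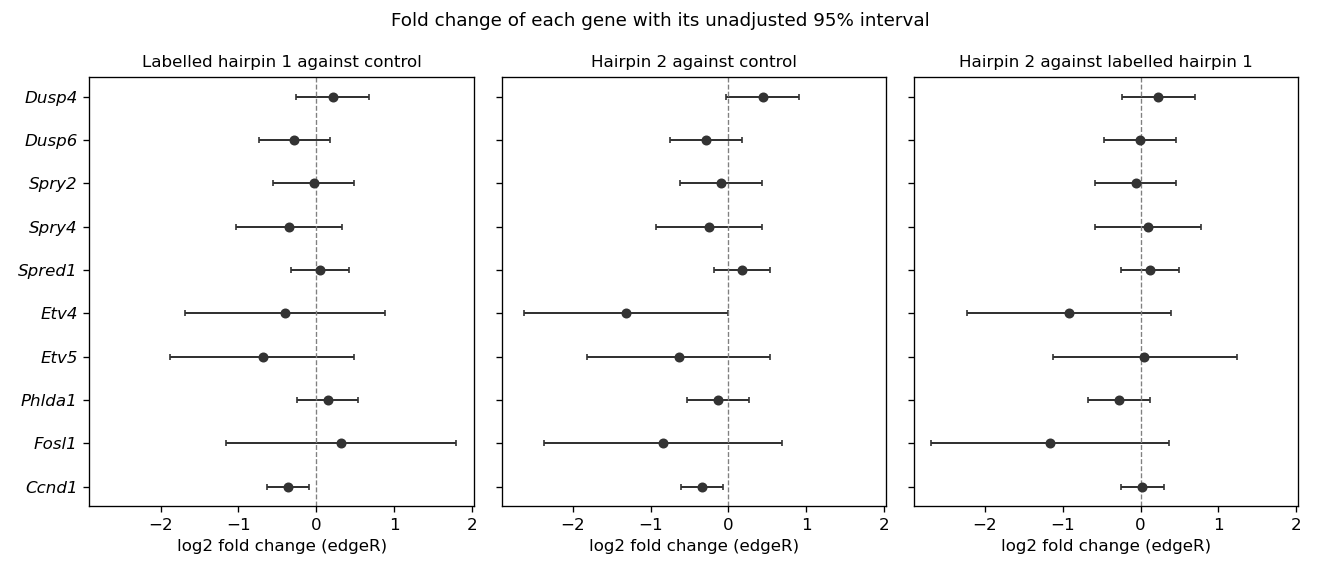
edgeR log2 fold change of each gene (points) with its unadjusted 95% interval (bars, horizontal axis) in the 3 comparisons; the dashed line is no change. The Ccnd1 interval lies below 0 against control in both hairpin groups, that of Etv4 ends at -0.00 with hairpin 2, and the other intervals include 0.

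Several members were high or low in the same libraries, across group lines. Control replicate 3 was the highest of the 9 libraries for 6 members (Dusp6, Spry2, Spry4, Etv4, Etv5 and Ccnd1), while it was the highest for 10.3% of all tested genes. Replicate 3 of hairpin 2 was the lowest for 5 members (Dusp6, Spry2, Spry4, Etv5 and Ccnd1), while it was the lowest for 8.55% of all tested genes. The 2 libraries have the same replicate number by label only, and they are from different groups. Across the 9 libraries, the Pearson r of each gene's log2 CPM with the mean of the other members was 0.90 for Dusp6, 0.90 for Spry4, 0.87 for Spry2, 0.73 for Etv5, 0.63 for Etv4 and 0.56 for Ccnd1. It was 0.16 for Phlda1, -0.01 for Fosl1 and -0.05 for Spred1, and -0.57 for Dusp4. These are descriptions over 9 libraries that share depth and tissue makeup. Dusp4 thus leaned against the mean of the other members, only moderately over 9 libraries, and this relation was not tested.

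**Figure D3:**
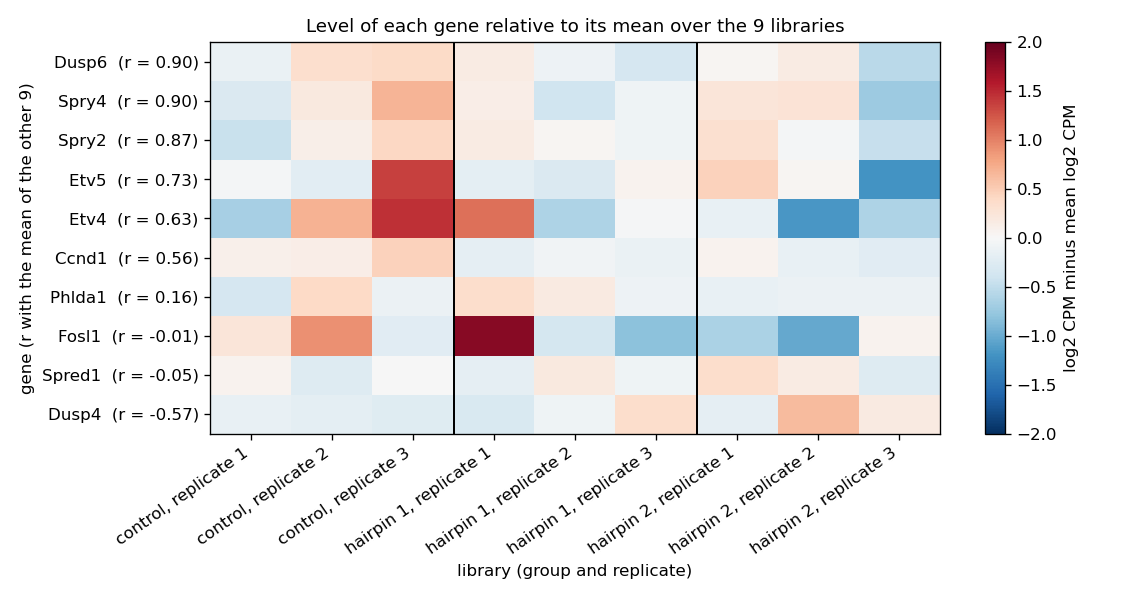
Level of each gene (rows) in each library (columns), as log2 CPM minus the gene's mean over the 9 libraries (colour scale); the number beside each name is its r with the mean of the other 9. Control replicate 3 is high and replicate 3 of hairpin 2 is low for Dusp6, Spry2, Spry4, Etv5 and Ccnd1, and Dusp4 shows no such pattern.

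Host cell markers differed between these 2 libraries, not all in the same direction. Macrophage and myeloid markers (7 tested of 7) summed to 114 CPM in control replicate 3 and 441 CPM in replicate 3 of hairpin 2, with ranges of 114 to 306 CPM in control, 112 to 386 CPM in the libraries labelled hairpin 1 and 39.2 to 441 CPM with hairpin 2. Fibroblast markers (7 tested of 7) summed to 171 CPM and 1390 CPM in the same 2 libraries, with ranges of 171 to 412, 247 to 3275 and 271 to 1390 CPM. Endothelial markers were at 179 and 222 CPM in the same 2 libraries and ranged over 171 to 197, 195 to 288 and 179 to 340.1 CPM. Erythroid markers went the other way, at 2590 CPM in control replicate 3 and 524 CPM in replicate 3 of hairpin 2. Pericyte and smooth muscle markers were at 104 and 94.7 CPM there. The leukocyte gene Ptprc was at 4.94 CPM in control replicate 3 and at 16.3 CPM in replicate 3 of hairpin 2. Melanocyte markers were at 23201 and 25709 CPM there. Replicate 1 labelled hairpin 1 had the highest fibroblast sum, 3275 CPM. In that library Dusp6 (157 CPM), Spry2 (24.7 CPM), Spry4 (16.5 CPM) and Etv4 (12.8 CPM) were above their means over all libraries (142, 22.6, 15.7 and 7.17 CPM), and Etv5 (39.0 CPM) and Ccnd1 (149.9 CPM) were below theirs (49.6 and 171 CPM). The part of host cells in the members' levels was not tested.

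The members include 3 pairs of paralogues, which were compared across the 9 libraries on the log2 CPM scale. Spry2 and Spry4 varied together, with a Pearson r of 0.82 (two-sided permutation p = 0.00691, 0.0207 adjusted over the 3 pairs) and a Spearman rho of 0.73 (permutation p = 0.0309, adjusted 0.0901). With group means removed r was 0.87 (permutation p = 0.00215, adjusted 0.00645), so r itself was no lower within groups. For every pair, the permutations with group means removed shuffled the 9 libraries freely across groups. They make no allowance for the removed means, so those p-values can be too small. Without control replicate 1 and hairpin 2 replicate 3, the libraries farthest from the Spry2 median, r was 0.67 (permutation p = 0.0944, adjusted 0.142), so passing the threshold rested on those 2 libraries. Dusp4 and Dusp6 had an r of -0.38 (permutation p = 0.313, adjusted 0.313) and a rho of -0.67 (permutation p = 0.0601, adjusted 0.0901). After leaving out the 2 libraries farthest from the Dusp4 median (the third labelled hairpin 1 and the second of hairpin 2), r was -0.88 (permutation p = 0.0115, adjusted 0.0345), and with group means removed it was -0.20 (permutation p = 0.608). Etv4 and Etv5 had an r of 0.51 (permutation p = 0.167, adjusted 0.25), a rho of 0.30 (permutation p = 0.436, adjusted 0.436), an r of 0.42 with group means removed (permutation p = 0.26), and an r of 0.14 without control replicate 3 and replicate 1 labelled hairpin 1 (permutation p = 0.747).

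**Figure D4:**
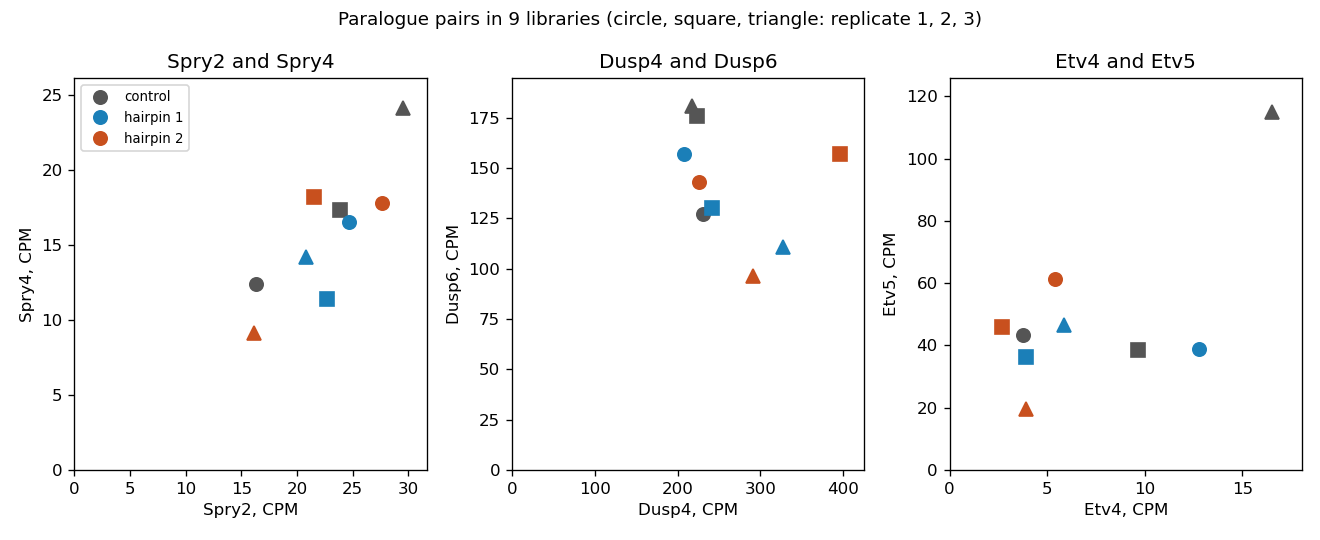
CPM of one paralogue against the other in the 9 libraries for 3 pairs (linear axes starting at 0; colour is the group and shape the replicate number). Spry2 and Spry4 are high in the same libraries (r = 0.82 on the log2 scale), with control replicate 3 at the upper end and replicate 3 of hairpin 2 at the lower end; the other pairs show no relation that passed the threshold with all 9 libraries.

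Of 10516 genes with a mean of at least 5 CPM, Apold1, Prim1, Tspan15, Mtif2 and Mapk12 had the pattern most like the mean of the members (each r = 0.93 over 9 libraries). Each was at its lowest in replicate 3 of hairpin 2. Apold1 was at 151 CPM in control replicate 3 and 73.4 CPM in replicate 3 of hairpin 2, and Tspan15 at 31.7 and 14.3 CPM. Closest to Dusp6 alone were E2f1 (r = 0.96), Elac2 (0.93) and Hoxa3 (0.93). E2f1, the gene of a transcription factor of S phase entry, was at 111 CPM in control replicate 3 and 71.3 CPM in replicate 3 of hairpin 2. All these genes were picked as the highest r among 10516 over only 9 libraries. Their r values are thus high by selection and were not tested.

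The rest of the pathway was read from 7 lists holding 133 genes, 120 of them tested. None passed the edgeR threshold in any comparison. At an unadjusted p under 0.05, 4 were higher and 0 lower in the libraries labelled hairpin 1 (3.33% of the 120, beside 3.17% of all genes), and 18 were higher and 7 lower with hairpin 2 (20.8%, beside 14.4%). Once each library's trend with transcript length and GC content was removed, the hairpin 2 figures became 5 higher and 8 lower (10.8%, beside 9.60% of all genes). Of the 18 higher genes, the 5 that stayed under 0.05 were Dusp2, Insr, Pdgfra, Pdgfrb and Fgf7, and of the 7 lower genes 4 did: Fgf1, Ccnd3, Cdkn2c and Ccne1. For scale, before trends were removed 8.14% of all tested genes were higher and 6.27% lower with hairpin 2 at an unadjusted p under 0.05. After removal, 448 of 14193 genes were higher and 915 lower. The counts of the single lists that follow use that unadjusted threshold, and none of their genes passed after adjustment.

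Among receptor tyrosine kinases (18 listed, 15 tested), 5 were higher with hairpin 2 at an unadjusted p under 0.05 (Met, Insr, Pdgfra, Pdgfrb and Kdr) and 0 were lower at that threshold. Met, the receptor of hepatocyte growth factor, was at 1420, 1905 and 1511 CPM in control and 1924, 2217 and 2309 CPM with hairpin 2, a log2 fold change of 0.42 ± 0.13 (edgeR adjusted p = 0.249), and 0.12 with length and GC trends removed. Insr, the insulin receptor, was at 32.8 ± 1.12 CPM in control and 56.8 ± 12.8 CPM with hairpin 2 (SD, n = 3 each). Pdgfra marks fibroblasts and Kdr endothelium, so those 2 receptors also stand in the host marker lists above. Among ligands (19 listed, 12 tested), Kitl and Fgf7 had an unadjusted p under 0.05 in the higher direction with hairpin 2 and Fgf1 in the lower. Fgf7, a fibroblast product, had a mean of 0.431 CPM in control, 1.45 CPM in the libraries labelled hairpin 1 and 1.42 CPM with hairpin 2. The 4 genes higher in the libraries labelled hairpin 1 at an unadjusted p under 0.05 were Fgfr1, Pdgfra, Pdgfrb and Fgf7. Pdgfra had a log2 fold change against control of 2.27 ± 0.84 there and 2.17 ± 0.84 with hairpin 2.

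In the core cascade (23 of 23 tested), Sos1, Sos2, Gab1, Frs2 and Iqgap1 were higher and Hras and Map2k2 lower with hairpin 2 at an unadjusted p under 0.05. Map2k2, which encodes the kinase MEK2, was at 225, 219 and 225 CPM in control, at 220.4, 241 and 227 CPM in the libraries labelled hairpin 1, and at 173, 159 and 199 CPM with hairpin 2. The hairpin 2 libraries lay below all 6 others. Over all tested genes they lay wholly below control for 10.2% and wholly below hairpin 1 for 7.67%. The log2 fold change of Map2k2 was -0.33 ± 0.10 against control (edgeR adjusted p = 0.252), and -0.19 with length and GC trends removed. Among inhibitors (15 of 15 tested), the genes of the RAS GTPase-activating proteins Nf1, Rasa1 and Rasa2 and of the ubiquitin ligase Cbl had an unadjusted p under 0.05 in the higher direction with hairpin 2, and 0 genes in the lower, though 6 of 15 had a negative log2 fold change. Rasa1 was at 42.8 ± 1.33 CPM in control and 53.9 ± 3.18 CPM with hairpin 2 (edgeR adjusted p = 0.267). With length and GC trends removed, none of these cascade and inhibitor genes kept an unadjusted p under 0.05 against control.

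Of the other ERK outputs (23 listed, 21 tested), Dusp2, a nuclear phosphatase gene typical of leukocytes, was the 1 gene with an unadjusted p under 0.05 with hairpin 2, at 34.4 ± 9.60 CPM against 18.3 ± 5.39 CPM in control (edgeR adjusted p = 0.252). Dusp2 was highest in replicate 2 of hairpin 2 (45.0 CPM), where the leukocyte gene Ptprc was lowest (3.22 CPM). The cell source of Dusp2 was not tested. Of the 21 tested, 12 were below 0 on the log2 scale and the median was -0.10. Fos, an immediate early gene, spanned 14.6 to 149 CPM over the libraries with every group overlapping, and Myc was at 34.8 CPM in replicate 3 of hairpin 2 and 54.6 to 74.2 CPM in the other 8. The list of ERK-responsive kinases and AP-1 partners (21 tested of 21), which holds Cic, the gene of Capicua, had 0 genes at an unadjusted p under 0.05 with hairpin 2. Cic was at 153 ± 13.8 CPM in control and 173 ± 6.04 CPM with hairpin 2.

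A list of other G1 cell cycle genes (14 listed, 13 tested) had 1 gene higher and 4 lower with hairpin 2 at an unadjusted p under 0.05. Ccnd2, the gene of cyclin D2, was the higher one, at 439 ± 6.37 CPM in control and 531 ± 44.8 CPM with hairpin 2. Ccnd3, Cdk4, Cdkn2c and Ccne1 were the lower ones. Cdk4 was at 324, 303 and 302 CPM in control and 293, 198 and 215 CPM with hairpin 2 (edgeR adjusted p = 0.267). Ccne1, the gene of cyclin E1, was at 52.5 ± 1.49 CPM in control and 38.3 ± 3.92 CPM with hairpin 2, a log2 fold change of -0.45 ± 0.11 (edgeR adjusted p = 0.241). With length and GC trends removed, the log2 fold change for hairpin 2 was 0.01 in place of 0.27 for Ccnd2 and -0.27 in place of -0.40 for Cdk4. Ccnd3, Cdkn2c and Ccne1 kept an unadjusted p under 0.05, and Ccnd2 and Cdk4 did not. In the libraries labelled hairpin 1 Ccnd2 was at 421 ± 28.7 CPM and Cdk4 at 312 ± 10.7 CPM, near control, while Ccnd1 was at 155 ± 5.91 CPM against 199.7 ± 28.6 CPM in control (SD, n = 3 each). Ccne1 was at 44.0, 48.6 and 45.8 CPM in those libraries and at 52.5, 51.0 and 54.0 CPM in control. Its 6 hairpin libraries lay below all 3 controls, as did those of Ccnd1 and of 1.62% of all tested genes.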

How the data were processed

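Per the labels' protocols, tumour RNA was isolated with TRIzol and read on an Illumina NovaSeq. For each of 9 libraries the authors deposited 1 file of whole-number counts by gene symbol. The submitters' processing notes list STAR 2.7.0d and Cufflinks and, although the symbols are of mouse genes, GRCh38 and hg38, which are human builds. How reads were counted, and whether by strand, is not stated there.

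After filterByExpr (minimum count 10 and total 15), 14193 genes were scaled by TMM and tested by edgeR 4.0.16 under R 4.3.3. The 9 libraries entered 1 robust quasi-likelihood model with 3 groups, and p-values were adjusted by Benjamini-Hochberg over all genes (threshold 0.05). The steps were tested on simulated data. Alternatives were other scalings and filters, DESeq2 1.42.0, limma-voom 3.58.1, a replicate block, removal of length and GC trends, and leaving out libraries. Likeness and paralogue pairs used log2 CPM (prior count 2), the pairs with 100000 permutations. Gene positions and lengths came from GENCODE M21. Named beside the members were, per list, the 3 genes of highest CPM and the gene of smallest p in each comparison; genes at an unadjusted p under 0.05 were named after their values were seen. A gene this rule selects is not reported here. The members and lists were chosen with earlier results of these data known. Replicate numbers gave no sign of pairing between libraries: 2 of 9 same-number pairs correlated above 0.1. With so few libraries per group this check cannot exclude pairing. Poisson intervals cover counting error only.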

Additional observations from a re-analysis of the deposited data

How the results depend on the processing

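Depth limits Fosl1 most, with 12 counts in its thinnest library. None of 630 alternative values of the members passed the threshold, and 12 of the 30 kept their sign in every one of 21 alternatives. Those 12 include Ccnd1 against control, at -0.43 to -0.24 for the libraries labelled hairpin 1 and -0.43 to -0.22 for hairpin 2. Genes called for hairpin 2 against control numbered 4 with no filter, 280 with DESeq2 and 0 to 2 with 1 library left out. Against hairpin 1 they numbered 2, 89 and 0 to 1. A replicate block called 0 genes in each comparison, with 287, 1498 and 1141 at an unadjusted p under 0.05, and 0 of 9 libraries correlated best with their own number. With length and GC trends removed, an alternative added after seeing the data for this count, 13 pathway list genes had an unadjusted p under 0.05 for hairpin 2 against control in place of 25, and 3 in place of 16 for hairpin 2 against hairpin 1. The cause was not tested for any of these.

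Leaving out 1 library turned the sign of these log2 fold changes. For the libraries labelled hairpin 1 against control the ranges were -0.23 to 0.18 for Spry2, -0.08 to 0.12 for Spred1, -1.04 to 0.17 for Etv4, -0.01 to 0.38 for Phlda1 and -0.97 to 0.72 for Fosl1. For hairpin 2 against control they were -0.30 to 0.11 for Spry2, -0.46 to 0.02 for Spry4, -1.01 to 0.04 for Etv5 and -0.29 to 0.09 for Phlda1. For hairpin 2 against hairpin 1 they were -0.01 to 0.44 for Dusp4, -0.15 to 0.18 for Dusp6, -0.27 to 0.11 for Spry2, -0.06 to 0.36 for Spry4, -0.02 to 0.28 for Spred1, -0.31 to 0.40 for Etv5, -1.56 to 0.11 for Fosl1 and -0.07 to 0.08 for Ccnd1. Other reversals with limma-voom were Spry2 (0.01) and Fosl1 (-0.04) for hairpin 1 against control and Etv5 (-0.09) for hairpin 2 against hairpin 1. With length and GC trends removed they were Spred1 (-0.12) and Phlda1 (0.05) for hairpin 2 against control, and Dusp6 (0.07), Spry2 (0.02) and Spred1 (-0.12) for hairpin 2 against hairpin 1. Without both replicate 1 labelled hairpin 1 and replicate 2 of hairpin 2 they were Fosl1 (-0.97) for hairpin 1 against control, and Dusp4 (-0.15), Spry2 (0.00), Etv5 (-0.04) and Fosl1 (0.32) for hairpin 2 against hairpin 1. In that last comparison Dusp6 was 0.02 by library totals and 0.00 with no filter, and Ccnd1 was -0.01 with upper-quartile scaling. For the paralogue pairs, Spry2 with Spry4 no longer passed as a Spearman rho (0.73) or without the 2 farthest libraries (0.67), and Dusp4 with Dusp6 passed without its 2 farthest (-0.88).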
